A study of Mus musculus with 190 samples.

Results

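The 8 genes described here belong to the regulatory T cell programme: Foxp3, Il2ra, Ctla4, Ikzf2, Ikzf4, Tnfrsf4, Tnfrsf18 and Icos. They were taken by name, as the rows of the count table that carry those gene names, and all 8 were found among 55414 genes. The list was drawn up with earlier results of these data known. The libraries were 190 whole-blood RNA-seq libraries of male NC/Nga mice with the genotype WT, a strain that develops dermatitis resembling atopic dermatitis when kept outside specific-pathogen-free (SPF) conditions. Of these, 180 came from 9 cohorts under conventional conditions, with 10 libraries per cohort at each of a pair of sampling days, and 10 came from a control cohort kept SPF, with 5 libraries on day 16 and 5 on day 44. The first sampling of cohorts 1 to 9 was on days 2, 5, 9, 12, 16, 19, 23, 26 and 30, in that order, and the second sampling was on day 44 for odd-numbered cohorts and on day 40 for even-numbered cohorts. Each library carries a dermatitis score, which ranged between 0 and 4 with a median of 2 over the 90 conventional libraries of the second sampling, and between 0 and 3 with a median of 0 over the 90 of the first; all 10 SPF libraries scored 0. The labels give neither an age nor an agent applied to provoke the dermatitis, and what the day counts from is not given in the sources used here.

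Regulatory T cells are CD4 T cells that restrain other immune cells. Foxp3 is the transcription factor that defines their lineage, and it holds the genes for the high-affinity interleukin 2 receptor chain CD25 (Il2ra) and the inhibitory receptor CTLA-4 (Ctla4) in an active state. Helios (Ikzf2) and Eos (Ikzf4) are Ikaros-family factors that work alongside Foxp3, while OX40 (Tnfrsf4), GITR (Tnfrsf18) and ICOS (Icos) are costimulatory receptors that these cells carry at high levels. Apart from Foxp3 in mice, most of these genes are also switched on in activated conventional T cells, and in whole blood fewer cells of a type and less RNA per cell cannot be told apart. In atopic dermatitis, regulatory T cells have been studied as a brake on type 2 inflammation of the skin.

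Library totals ranged between 21444129 and 71967299 counts with a median of 36448182. The summed counts of the T cell receptor chains Cd3d, Cd3e and Cd3g, used below as the measure of T cell RNA, had a median of 1381 and a highest value of 3301 per library. The libraries also differed by cohort in ways the groups do not explain. Globin transcripts took a median of 3.58% of counts in cohorts 1 to 4 and 3.59% in SPF libraries, against 7.83% in cohorts 6 to 9, and mitochondrial ribosomal RNA took 6.92% and 7.38%, against 15.4%. Cohort 5 spanned both, with a median globin share of 7.03% on day 44 and 3.72% on day 16. SPF replicate 3 of day 16 stood apart with 45.3% globin. Trends over day, changes between samplings and slopes on the score are therefore also given within cohorts 1 to 4 and within cohorts 6 to 9, where the cohorts allow it. Housing and first-sampling day were each set per cohort, so that neither can be told apart from the cohort, and p-values measure the spread between libraries. Values below are CPM, counts relative to the library total scaled by edgeR's TMM factors, unless the text says otherwise, and a gene is said to have risen or fallen where edgeR's quasi-likelihood test gave a Benjamini-Hochberg adjusted p under 0.05 over the 18192 genes tested, of which all 8 members were part.

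On GRCm39, the build named in the submitters' processing notes, 4 of the members lie in 2 pairs of neighbours. Ctla4 (ENSMUSG00000026011.14, chromosome 1, 60926159 to 60954991) and Icos (ENSMUSG00000026009.15, chromosome 1, 61017086 to 61039479) are on the plus strand, 62094 bases apart. Tnfrsf4 (ENSMUSG00000029075.7, chromosome 4, 156098300 to 156101069) and Tnfrsf18 (ENSMUSG00000041954.19, chromosome 4, 156110621 to 156113352) are also on the plus strand, 9551 bases apart. Foxp3 (ENSMUSG00000039521.14) lies on the plus strand of chromosome X at 7439883 to 7461484, and Il2ra (ENSMUSG00000026770.6) on the plus strand of chromosome 2 at 11647618 to 11698004. The Ikaros-family members are both on minus strands, Ikzf2 (ENSMUSG00000025997.14) on chromosome 1 at 69570373 to 69726404 and Ikzf4 (ENSMUSG00000002578.19) on chromosome 10 at 128466712 to 128505227. The library kit marks strand, but whether the counting used it is not given in the sources used here, and 5 of the members also share their own strand with another annotated gene: Foxp3 with Flicr, Il2ra with Gm37881, Ctla4 with Rpl18-ps1, Ikzf2 with Gm29112 and Gm28112, and Icos with Gm37039. How reads were split between each such pair is not given, and the levels of these 5 members are uncertain to that extent.

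STAT5, the factor activated by interleukin 2, binds sites of the form TTCNNNGAA, and promoters were searched for it because several members are known interleukin 2 targets. The RefSeq promoter table (GRCm38.p6) held windows for 5 of the 8 members, namely Ctla4, Il2ra, Tnfrsf4, Tnfrsf18 and Foxp3, the last with 2 starts. In the 250 bases before each start, TTCNNNGAA, which reads as the same pattern on either strand, was found once before Tnfrsf18 and once before the downstream Foxp3 start, and in none of the other 4 windows. Of all 32851 promoter windows of that length, 2306 (7.02%) held it. The forkhead motif GTAAACA, searched on both strands, was in 1040 of all windows (3.17%) and in none of the members' windows. The 2 windows with a match are shown 5′ to 3′ on the plus strand, with the matching bases in capitals. The Tnfrsf18 window is chr4:156026072-156026321 on GRCm38.p6, and its match begins 99 bases before the start. The Foxp3 window is chrX:7580233-7580482, and its match lies 5′ of the middle of the window. A match is a string of letters and was not tested for binding in these blood samples.
Tnfrsf18: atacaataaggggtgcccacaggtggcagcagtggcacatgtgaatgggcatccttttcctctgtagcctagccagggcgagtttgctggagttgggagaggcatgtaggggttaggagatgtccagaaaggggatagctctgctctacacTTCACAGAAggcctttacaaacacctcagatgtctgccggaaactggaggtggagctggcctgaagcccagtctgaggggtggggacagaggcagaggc
Foxp3: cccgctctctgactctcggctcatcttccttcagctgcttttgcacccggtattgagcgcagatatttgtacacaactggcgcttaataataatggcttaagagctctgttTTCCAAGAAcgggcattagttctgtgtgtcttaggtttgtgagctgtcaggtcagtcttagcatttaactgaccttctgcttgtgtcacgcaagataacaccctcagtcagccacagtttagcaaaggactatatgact

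Foxp3 itself was scarce. Its CPM ranged between 0.0359 and 1.68 over the 190 libraries with a median of 0.483, which corresponds to between 1 and 53 counts and a median of 18 counts per library. Ikzf4 and Tnfrsf4 were scarcer or alike, with medians of 10 and 17 counts, and no count in 5 and 2 libraries. Il2ra had a median of 51 counts, Icos of 361 and Ikzf2 of 774. On the CPM scale the medians were 1.31 for Il2ra, 3.47 for Tnfrsf18, 3.84 for Ctla4, 9.67 for Icos and 20.9 for Ikzf2. Differences in Foxp3, Ikzf4 and Tnfrsf4 therefore rest on few reads. Between genes, levels are compared on the authors' TPM scale, which divides by length. There the order of the medians was Tnfrsf18 at 1.05 TPM, Ikzf2 at 0.918, Icos at 0.770, Ctla4 at 0.532, Tnfrsf4 at 0.185, Il2ra at 0.109, Foxp3 at 0.054 and Ikzf4 at 0.0175 TPM. The T cell receptor chains stood above all of them, with medians of 4.30 TPM for Cd3g, 2.36 for Cd3d and 1.30 for Cd3e, so the RNA of T cells was present in this blood. Il10, a suppressive cytokine, was listed at 0 TPM in 81.6% of the 190 libraries, Ccr8, a chemokine receptor of tissue regulatory T cells, in 85.3%, and Il2, the ligand of the Il2ra chain, in 55.8%.

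**Figure D1:**
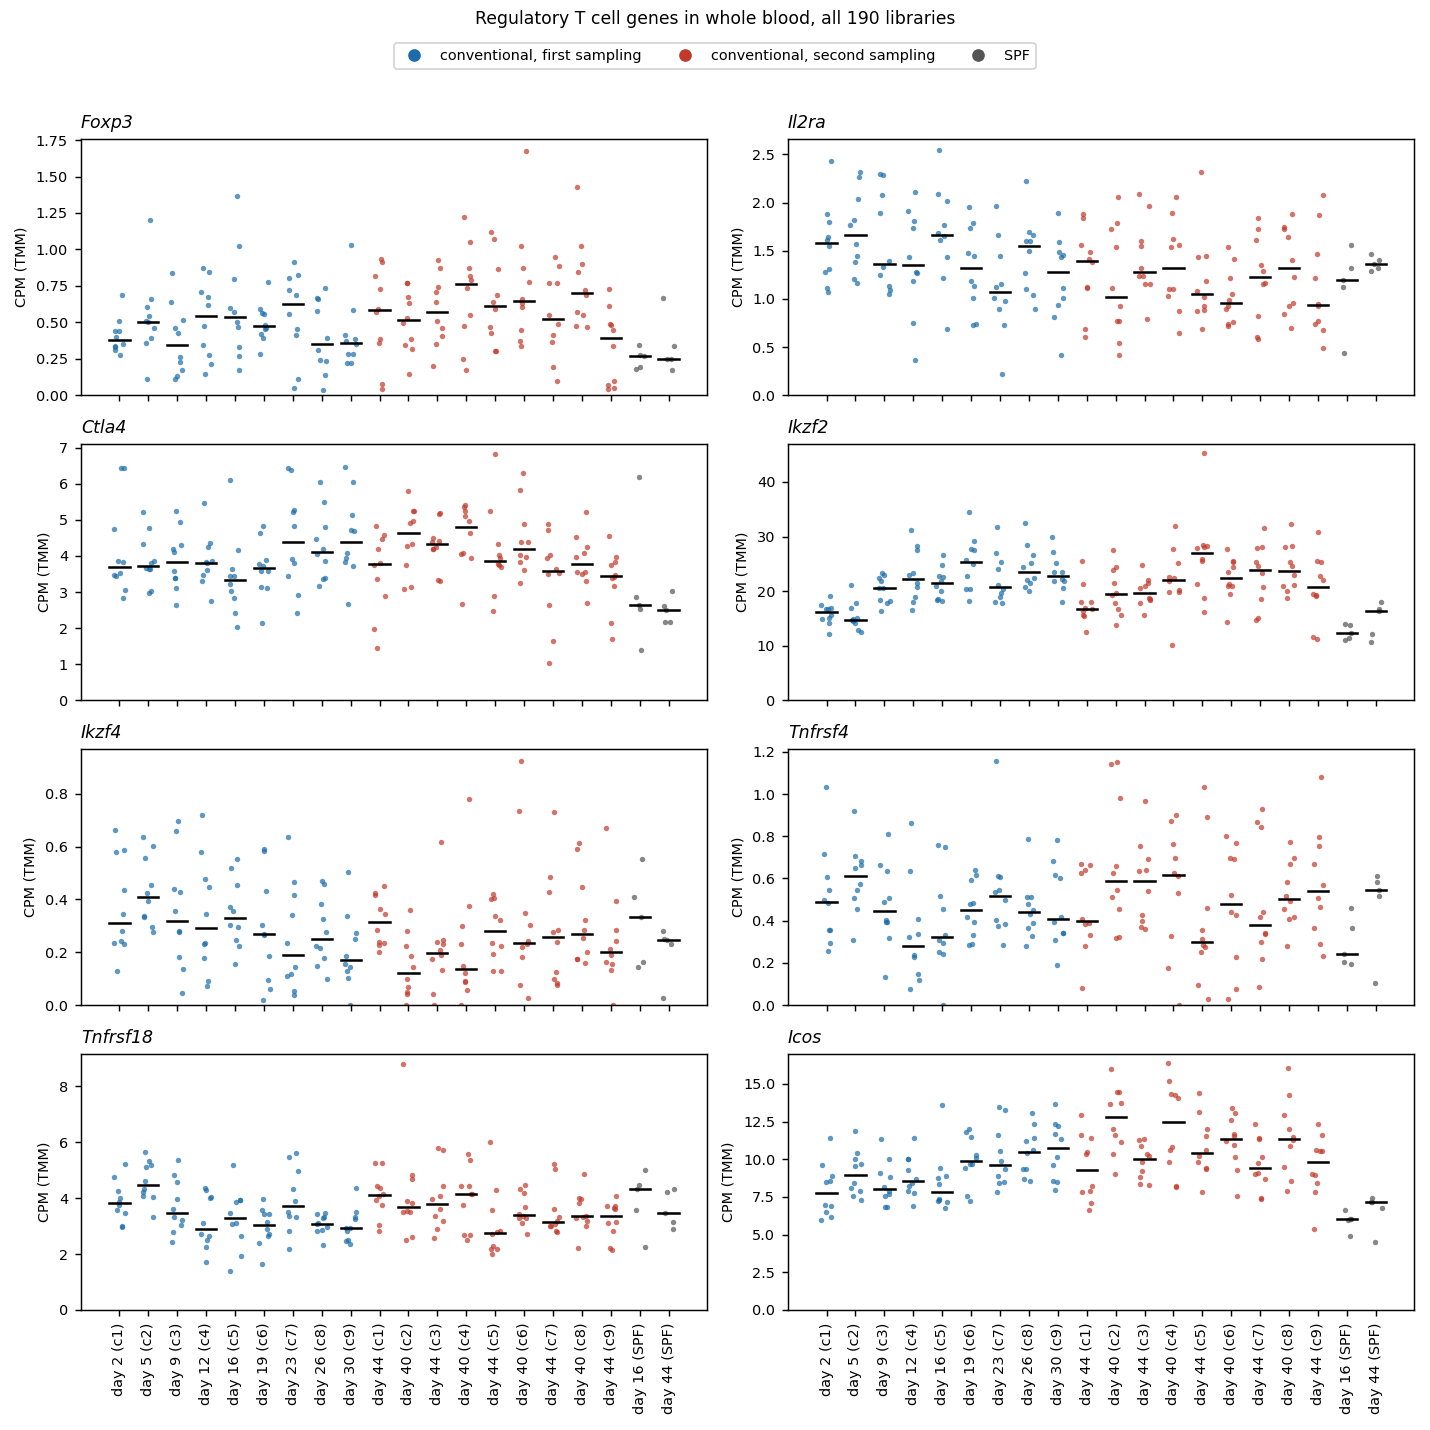
CPM (TMM-scaled) of each member in every library, 1 panel per gene on its own linear axis, with the 20 groups along the x axis (first sampling of cohorts 1 to 9 in blue, second sampling in red, SPF in grey) and a bar at each group's median. Neighbouring groups overlap for every member, and Ikzf2 and Icos are lowest in the SPF group of day 16, at medians of 12.4 and 6.04 CPM.

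Across the 20 groups the medians of each member formed a graded order in which every one of the 19 neighbouring pairs of groups overlapped. The top and bottom groups, picked by these same medians, did not overlap for 2 members, Ikzf2 and Icos. How many of all genes separate in this way was not computed. Ikzf2 had its highest median, 26.9 CPM, in cohort 5 on day 44 and its lowest, 12.4 CPM, in the SPF mice on day 16. Icos had its highest median, 12.8 CPM, in cohort 2 on day 40 and its lowest, 6.04 CPM, in the SPF mice on day 16. For Foxp3 the top was cohort 4 on day 40 at 0.760 CPM and the bottom the SPF mice on day 44 at 0.251 CPM, with overlapping libraries. Ctla4 likewise was highest in cohort 4 on day 40, at 4.80 CPM, and lowest in the SPF mice on day 44, at 2.51 CPM. Tnfrsf4 was highest in that same conventional group, at 0.618 CPM, and lowest in the SPF mice on day 16, at 0.243 CPM. The remaining members did not have their lowest median in SPF mice. Il2ra ran between 1.67 CPM in cohort 5 on day 16 and 0.936 CPM in cohort 9 on day 44, and Tnfrsf18 between 4.48 CPM in cohort 2 on day 5 and 2.75 CPM in cohort 5 on day 44. Ikzf4 ran between 0.411 CPM in cohort 2 on day 5 and 0.122 CPM in cohort 2 on day 40.

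Conventional and SPF blood could be set against each other on day 16, when 8 of 10 conventional libraries still scored 0, using cohort 5 (n = 10) and the SPF cohort (n = 5). Ikzf2, the gene of Helios, was the member that rose, and it was among the 0.522% of all genes that differed at this threshold, 0.368% being higher in conventional mice and 0.154% lower. In the conventional libraries Ikzf2 had a lowest value of 18.2, a median of 21.4 and a highest value of 26.5 CPM, against 13.99, 12.39, 13.76, 11.08 and 11.43 CPM in SPF replicates 1 to 5. All 10 conventional libraries lay above all 5 SPF libraries, and the log2 fold change was 0.79 ± 0.16 (SE, edgeR adjusted p = 0.0168). Without SPF replicate 2, 4 or 5 it was 0.74, 0.74 and 0.75, and the adjusted p became 0.0786, 0.0831 and 0.0741. Without the globin-rich SPF replicate 3 of day 16 it was 0.79 (adjusted p = 0.0376), and with globin and mitochondrial ribosomal RNA shares as covariates 0.51 (adjusted p = 0.0471). Relative to Cd3 transcripts the median was 565 Ikzf2 counts per 1000 Cd3 counts in conventional mice and 297 in SPF mice, and the log2 fold change of 0.85 ± 0.18 passed as well (edgeR adjusted p = 0.0254, 0.258% of all genes called on this scale). The median of all genes shifted by 0.13 on that scale, so that Ikzf2 stood 0.72 above it. This call per Cd3 transcript rested on the choice of libraries and reference. Leaving out SPF replicate 2, 3, 4 or 5 ended it (0.83, 0.86, 0.77 and 0.83, with adjusted p of 0.11, 0.0618, 0.121 and 0.113), as did leaving out SPF replicate 3 of day 16 alone (0.86, adjusted p = 0.0572) and scaling to Trac, Trbc1 and Trbc2 (0.88, adjusted p = 0.0504), whereas without SPF replicate 1 it passed (0.98, adjusted p = 0.00941).

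Icos did not pass the test on day 16. Its CPM was 6.75 at the lowest, 7.85 at the median and 13.6 at the highest in conventional mice, against 4.892, 6.631, 6.067, 5.963 and 6.041 CPM in SPF replicates 1 to 5. All 10 conventional libraries were above all 5 SPF libraries, with a log2 fold change of 0.53 ± 0.15 (edgeR adjusted p = 0.0942). In this comparison 2316 of the 18192 genes tested had an unadjusted p under 0.05 in edgeR. How many genes separate fully, as Icos and Ikzf2 did, was not computed. Foxp3 had 0.174, 0.534 and 1.36 CPM as the lowest, median and highest conventional values, against 0.2763, 0.1785, 0.3467, 0.2724 and 0.1933 CPM in SPF replicates 1 to 5. Of the conventional libraries 7 exceeded every SPF library and 1 fell below them all, and the log2 fold change of 1.26 ± 0.44 had an edgeR adjusted p of 0.18. For Ctla4 the ranges overlapped fully, at 2.03 to 6.12 CPM in conventional mice and 1.39 to 6.19 CPM in SPF mice, where replicate 5 alone set the upper end; the log2 fold change was 0.14 ± 0.25 (edgeR adjusted p = 0.888) and 0.55 without that replicate. Il2ra had medians of 1.67 and 1.20 CPM in conventional and SPF mice, Tnfrsf4 0.321 and 0.243, Ikzf4 0.330 and 0.333, and Tnfrsf18 3.30 and 4.34, and none of these differences passed the test.

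Markers of another blood cell moved with Ikzf2 on day 16. Of the eosinophil markers 3 of the 4 tested were higher in conventional mice, namely the eotaxin receptor Ccr3 (log2 fold change 2.39 ± 0.40), the lectin Siglecf (2.26 ± 0.38) and the lipoxygenase Alox15 (2.22 ± 0.41). Their list summed to between 17.8 and 27.8 CPM in conventional libraries and between 1.82 and 9.26 CPM in SPF libraries. The granule peroxidase gene Epx, which is mostly transcribed in bone marrow precursors, was listed at 0 TPM in 81.6% of the 190 libraries. The part of this shift in the Ikzf2 result was not tested. Of the 11 T cell receptor and pan-T cell genes, 0 passed on day 16, beside 0.522% of all genes, so this count does not show that T cell RNA was alike. Median Cd3d was 12.3 CPM in conventional and 15.8 CPM in SPF mice, and Cd3g 16.5 and 18.2 CPM. Cd3e went the other way, at 9.53 and 7.14 CPM.

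Between day 16 and day 44, in an edgeR fit of cohort 5 with the SPF mice (30 libraries), no member's change passed in either housing. In conventional cohort 5, 12.6% of all genes passed and 0 of the 8 members did. Icos came nearest, with a log2 fold change of 0.33 ± 0.12 for day 44 over day 16 (edgeR adjusted p = 0.0678), at medians of 10.4 CPM on day 44 and 7.85 CPM on day 16. In a fit of all 180 conventional libraries the same change was 0.35 ± 0.12 and passed (edgeR adjusted p = 0.0369), so the call depends on the set of libraries fitted. Il2ra had −0.51 ± 0.22 in the fit of 30 libraries (edgeR adjusted p = 0.128). In edgeR's unadjusted p, 3 members, Icos, Il2ra and Ikzf2, were under 0.05, beside 4773 of the 18192 genes tested. In the SPF mice 0 of 18192 genes passed, with 1050 under an unadjusted p of 0.05, and the member values there ran between −0.57 ± 0.51 for Ikzf4 and 0.69 ± 0.68 for Tnfrsf4, with Icos at 0.17 ± 0.17. The difference between the housings in this change was not called for any gene, and for Icos it was 0.16 ± 0.21 on the log2 scale.

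**Figure D2:**
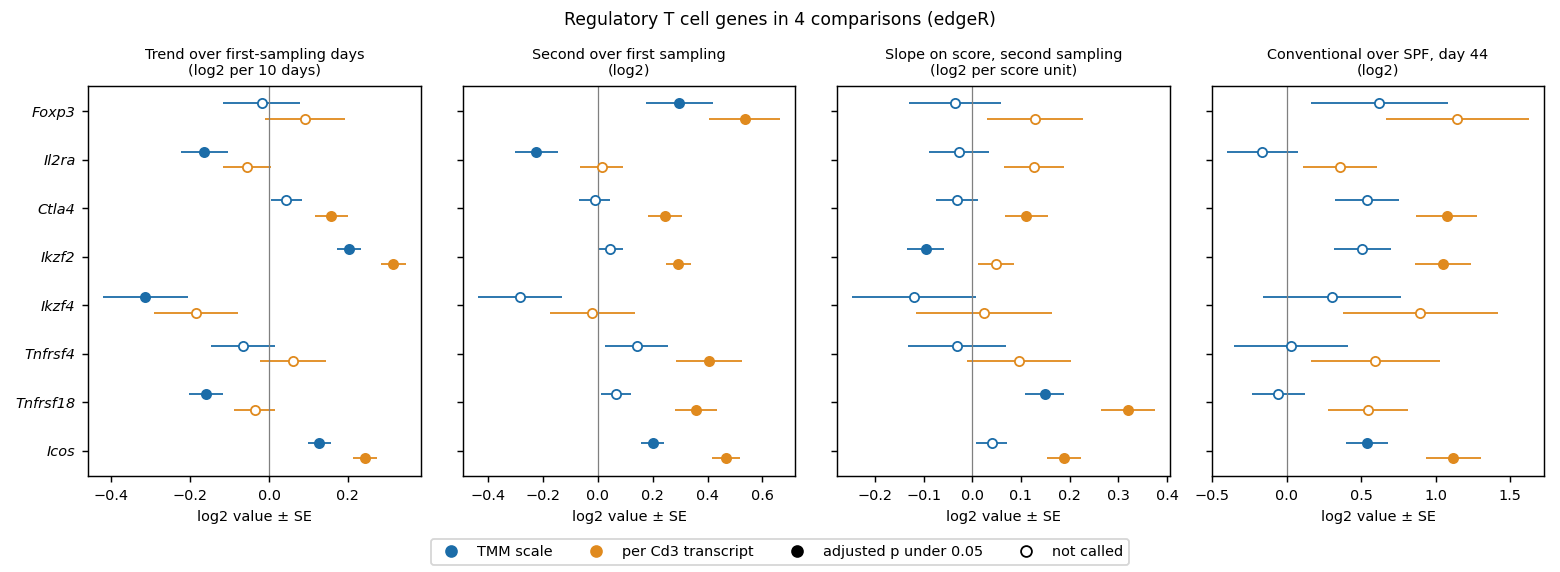
Log2 effect ± SE of each member in 4 comparisons (trend per 10 days at the first sampling, second over first sampling, slope per dermatitis score unit at the second sampling, and conventional over SPF on day 44), in blue on the TMM scale and in orange relative to Cd3 counts, with filled points where the edgeR adjusted p was under 0.05. Icos is filled on both scales in 3 of the panels, and Foxp3 in the comparison of samplings alone.

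On day 44, when the conventional libraries had scores of up to 4, Icos was the member higher in the 50 conventional libraries of cohorts 1, 3, 5, 7 and 9 than in the 5 SPF libraries. Of all genes 20.1% differed between the housings at this day, 9.81% being higher in conventional mice and 10.2% lower, so 1 of 8 members is near that share. Conventional Icos values were 5.37 at the lowest, 9.98 at the median and 14.4 CPM at the highest, against 6.769, 7.14, 4.492, 7.447 and 7.188 CPM in SPF replicates 1 to 5. Of the conventional libraries 46 of 50 exceeded all 5 SPF libraries, and the log2 fold change was 0.54 ± 0.14 (edgeR adjusted p = 0.00451). It was 0.50 with cohorts 1 and 3 (adjusted p = 0.0152) and 0.56 with cohorts 5, 7 and 9 (adjusted p = 0.00774), while without SPF replicate 3, the lowest library, it was 0.43 (adjusted p = 0.0516). Ctla4 and Ikzf2 lay just outside the threshold. Ctla4 had 1.02, 3.79 and 6.82 CPM as lowest, median and highest conventional values, against 2.159, 2.513, 2.163, 2.623 and 3.022 CPM in SPF replicates 1 to 5, with 40 of 50 conventional libraries above all SPF libraries and a log2 fold change of 0.54 ± 0.21 (edgeR adjusted p = 0.0637). Ikzf2 had 11.2, 20.8 and 45.3 CPM, against 16.37, 16.74, 10.59, 12.12 and 18.02 CPM in SPF replicates 1 to 5, with 35 of 50 above and a log2 fold change of 0.51 ± 0.19 (edgeR adjusted p = 0.051). Foxp3 overlapped widely, at a median of 0.498 CPM in conventional mice and at 0.3353, 0.6658, 0.2495, 0.1732 and 0.2505 CPM in SPF replicates 1 to 5, and its log2 fold change was 0.62 ± 0.46 (edgeR adjusted p = 0.343). The other members had values of −0.17 (Il2ra), 0.30 (Ikzf4), 0.03 (Tnfrsf4) and −0.06 (Tnfrsf18).

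T cell genes themselves were lower in the conventional blood on day 44. Of 11 pan-T cell genes 6 fell, led by the CD3 chain Cd3d (log2 fold change −0.60 ± 0.17), and all 3 coreceptor genes fell, with Cd4 at −0.54 ± 0.13. Per 1000 Cd3 counts, 31% of all genes were called and the median of all tested genes was higher by 0.53 on the log2 scale, so values are also given relative to that shift. Icos had a median of 330 counts per 1000 Cd3 counts in conventional mice and 158.9 in SPF mice, with 49 of 50 conventional libraries above all SPF libraries and a log2 fold change of 1.12 ± 0.19 (edgeR adjusted p = 3.13e-05, 0.59 above the shift). Ctla4 had medians of 118.3 and 55.95 (1.07 ± 0.20, edgeR adjusted p = 0.000132, 0.55 above the shift) and Ikzf2 medians of 697 and 373 (1.05 ± 0.19, edgeR adjusted p = 5.57e-05, 0.52 above the shift). Foxp3 had medians of 16.0 and 6.56, and its value of 1.15 ± 0.48 did not pass (edgeR adjusted p = 0.0614). Other cells moved beside these results. The 8 neutrophil markers were all higher in conventional mice, their sum having a median of 4564 CPM against 685 CPM in SPF mice, all 7 B cell markers were lower, and 3 of 4 eosinophil markers were higher, with a median sum of 13.4 CPM against 4.21 CPM. Their part in the member values was not tested.

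At the first sampling the 9 conventional cohorts give a course of days 2 to 30, 1 cohort per day. Helios and ICOS transcripts were higher on the later days and GITR transcripts lower, in fits that do not account for the globin and ribosomal RNA shares. An edgeR test for any difference among the 9 days called 57.8% of all genes and 3 of 8 members, Ikzf2 (adjusted p = 2.21e-09), Tnfrsf18 (adjusted p = 0.000547) and Icos (adjusted p = 0.00559). Foxp3, Ctla4, Il2ra, Ikzf4 and Tnfrsf4 were not called, with adjusted p between 0.116 and 0.59. With the globin and mitochondrial ribosomal RNA shares as covariates 0 members were called in edgeR, and the 3 had adjusted p of 0.064 (Ikzf2, 0.0288 unadjusted), 0.233 (Tnfrsf18) and 0.245 (Icos). Within cohorts 1 to 4 Ikzf2 (edgeR adjusted p = 5.01e-05) and Tnfrsf18 (edgeR adjusted p = 0.0151) differed among the days, and Icos did not pass (edgeR adjusted p = 0.475). Within cohorts 6 to 9 none of the 3 passed in edgeR, with adjusted p of 0.585 for Ikzf2, 0.118 for Tnfrsf18 (0.0273 unadjusted) and 0.935 for Icos. Of the 18192 genes tested, 5080 differed among the days within cohorts 1 to 4 and 2538 within cohorts 6 to 9. The Foxp3 medians moved without order, at 0.377, 0.505, 0.343, 0.545, 0.534, 0.472, 0.624, 0.353 and 0.361 CPM over the days in order.

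For Ikzf2 the medians over the same days were 16.2, 14.7, 20.6, 22.2, 21.4, 25.3, 20.8, 23.4 and 22.8 CPM. Ikzf2 was higher than on day 2 on every day between day 12 (log2 fold change 0.49 ± 0.10, edgeR adjusted p = 0.000462) and day 30 (0.51 ± 0.10, edgeR adjusted p = 3.15e-05), with the largest value on day 19 (0.64 ± 0.10, edgeR adjusted p = 7.69e-07). The libraries ran between 17.98 and 29.84 CPM on day 30 and between 12.1 and 19.1 CPM on day 2, so these days still overlapped. The share of all genes that differed with day 2 was 0.275% at day 5, 2.40% at day 9, 12.2% at days 12 and 16, 30.4% at day 19, 37.4% at day 23, 31.3% at day 26 and 37.9% at day 30. Icos had medians of 7.73, 8.99, 8.03, 8.57, 7.85, 9.90, 9.63, 10.5 and 10.7 CPM, and it was higher than on day 2 from day 19 (0.30 ± 0.11) through day 30 (0.37 ± 0.11, edgeR adjusted p = 0.00628). Tnfrsf18 had medians of 3.82, 4.48, 3.47, 2.903, 3.30, 3.02, 3.71, 3.09 and 2.93 CPM, and it was lower than on day 2 on day 19 (−0.41 ± 0.16, edgeR adjusted p = 0.0353) and day 30 (−0.40 ± 0.16, edgeR adjusted p = 0.0336). The days on which Icos or Tnfrsf18 passed against day 2 all belong to cohorts 6 to 9, so that day and the higher globin share of those cohorts cannot be told apart there.

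**Figure D3:**
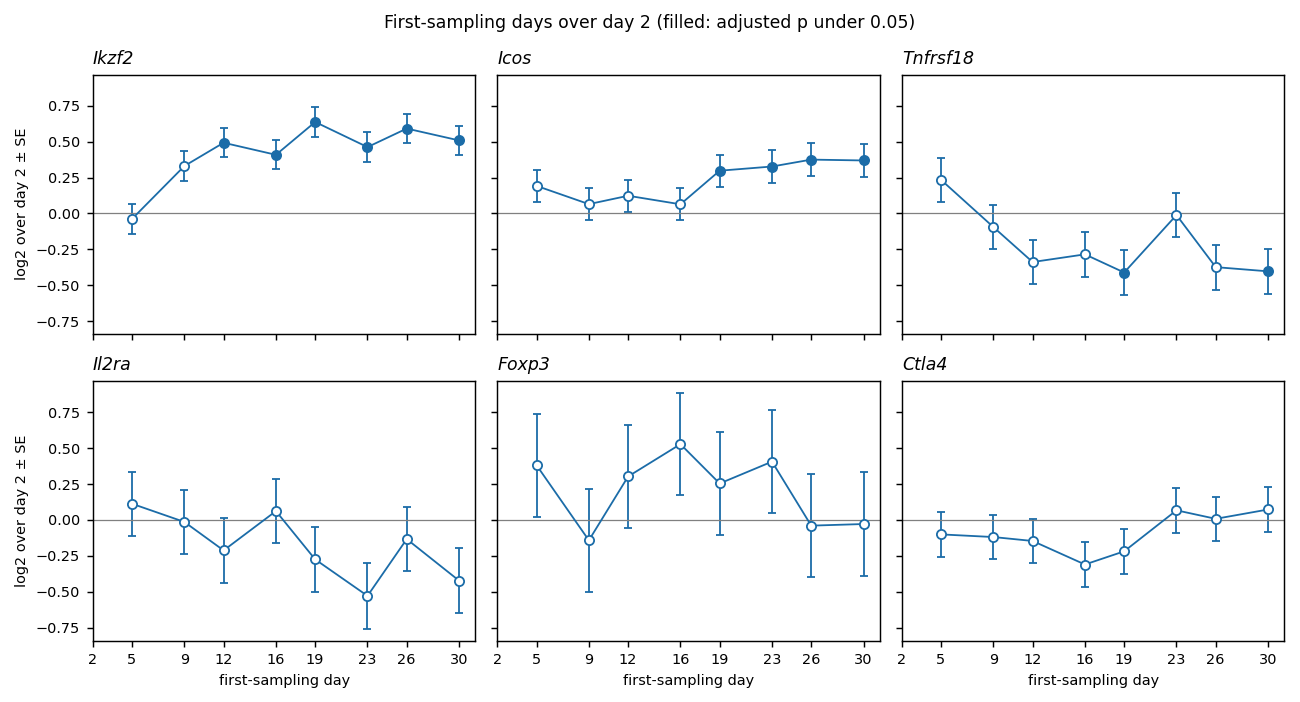
Log2 fold change against day 2 ± SE at each later first-sampling day (x axis in days) for Ikzf2, Icos, Tnfrsf18, Il2ra, Foxp3 and Ctla4, each day being 1 cohort of 10 libraries, with filled points where the edgeR adjusted p was under 0.05. Ikzf2 is filled from day 12 on, Icos from day 19 on, Tnfrsf18 on days 19 and 30, and Il2ra, Foxp3 and Ctla4 on no day.

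A straight line over day called 52.6% of all genes and 5 of 8 members. Ikzf2 rose by 0.20 ± 0.03 per 10 days on the log2 scale (edgeR adjusted p = 1.92e-08) and Icos by 0.13 ± 0.03 (edgeR adjusted p = 0.000136). Tnfrsf18 fell by 0.16 ± 0.04 (edgeR adjusted p = 0.00105), Il2ra fell by 0.16 ± 0.06 (edgeR adjusted p = 0.0153) and Ikzf4 fell by 0.31 ± 0.11 (edgeR adjusted p = 0.00981). Foxp3 had −0.02 ± 0.10, Ctla4 0.04 ± 0.04 and Tnfrsf4 −0.07 ± 0.08. Within cohorts 1 to 4, days 2 to 12, Ikzf2 rose by 0.54 (edgeR adjusted p = 1.58e-05) and Tnfrsf18 fell by 0.42 (edgeR adjusted p = 0.0317), while within cohorts 6 to 9, days 19 to 30, 0 members passed in edgeR and the Ikzf2 value was −0.08. In these subsets 4210 and 498 of the 18192 genes tested passed, in that order. With the globin and mitochondrial ribosomal RNA shares as covariates, Ikzf2 alone remained called and the Tnfrsf18 value turned to 0.08. In libraries of score 0 alone, Ikzf2 and Tnfrsf18 were called, beside 6408 of the 18192 genes tested. Per Cd3 transcript, where 54% of genes were called and the median of all genes shifted by 0.10 per 10 days, the values were 0.31 ± 0.03 for Ikzf2, 0.24 ± 0.03 for Icos and 0.16 ± 0.04 for Ctla4, all 3 called, although the Ctla4 value was −0.08 within cohorts 1 to 4 and −0.03 in libraries of score 0. On this scale Ikzf2 held within cohorts 1 to 4 (0.63, edgeR adjusted p = 2.29e-05) and Icos did not (0.14, edgeR adjusted p = 0.398), and within cohorts 6 to 9 the values were 0.14 for Ikzf2 (edgeR adjusted p = 0.424), 0.30 for Icos (edgeR adjusted p = 0.0849) and 0.48 for Ctla4 (edgeR adjusted p = 0.0525).

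Several cell marker lists followed the same days. The eosinophil list had median sums of 3.02, 3.16, 14.9, 22.2, 21.5, 20.6, 26.6, 28.2 and 19.0 CPM over the 9 days in order, and 3 of its 4 tested genes rose with day. All 6 basophil and all 8 neutrophil markers rose, and 9 of 11 pan-T cell genes fell. All 6 skin and connective tissue markers fell, their sum lying between 3.19 and 17.4 CPM on day 30 and between 35.1 and 254.8 CPM on day 2, and the gene whose group means followed Ikzf4 most closely was Col17a1, a collagen of the skin's basement membrane zone. The part of these lists in the members' trends was not tested.

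Each conventional cohort can also be set at its later sampling against its earlier one. Day and dermatitis score both differ between these samplings, and the part of each in a change was not tested. Some cohorts already had dermatitis at the earlier sampling, with a median score of 2 in cohort 9 on day 30 and of 1 in cohort 8 on day 26. The fit held conventional libraries alone, without the SPF mice. At the second sampling Foxp3 and Icos were higher and Il2ra was lower, on average over the 9 cohorts. Of all genes 62.3% passed, 31% being higher and 31.2% lower at the second sampling, so that 3 of 8 members are below the share of all genes. Foxp3 had 0.0418, 0.580 and 1.68 CPM as lowest, median and highest values at the second sampling, against 0.0359, 0.454 and 1.36 CPM at the first (n = 90 each). The log2 fold change was 0.30 ± 0.12 (edgeR adjusted p = 0.028), and the cohort median was higher at the second sampling in 8 of 9 cohorts. With other size factors (RLE) it was 0.26 (adjusted p = 0.0518) and with no filter on low counts 0.27 (adjusted p = 0.0689). Icos had 5.37, 10.6 and 16.4 CPM at the second sampling and 5.95, 9.01 and 13.7 CPM at the first, with a log2 fold change of 0.20 ± 0.04 (edgeR adjusted p = 1.73e-05) and 7 of 9 cohort medians higher. Il2ra had 0.421, 1.16 and 2.32 CPM at the second sampling and 0.223, 1.45 and 2.55 CPM at the first, with a log2 fold change of −0.22 ± 0.08 (edgeR adjusted p = 0.00888) and 1 of 9 cohort medians higher. Each pair of ranges overlapped widely.

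The other 5 members did not pass. Their log2 fold changes were −0.01 ± 0.06 for Ctla4, 0.05 ± 0.04 for Ikzf2, 0.07 ± 0.06 for Tnfrsf18, 0.14 ± 0.12 for Tnfrsf4 and −0.28 ± 0.15 for Ikzf4. Within cohorts 1 to 4 Icos rose by 0.28 (edgeR adjusted p = 3.15e-05), Il2ra fell by 0.32 (edgeR adjusted p = 0.0135) and Ikzf4 fell by 0.81 (edgeR adjusted p = 0.00126). Within cohorts 6 to 9, whose first sampling was on days 19 to 30, 0 members passed in edgeR, with Icos at 0.01 and Il2ra at −0.13. Of the 18192 genes tested, about 11700 passed within cohorts 1 to 4 and 3506 within cohorts 6 to 9. The member counts in these subsets are to be read against those numbers. The Foxp3 value was of the same size in both, 0.29 (edgeR adjusted p = 0.138) in cohorts 1 to 4 and 0.30 (edgeR adjusted p = 0.30) in cohorts 6 to 9, and passed in neither.

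Cohort by cohort, the change in Icos and in Ctla4 was not uniform. A test of the difference among the 9 changes called 36.3% of all genes, and among the members Icos (edgeR adjusted p = 0.018) and Ctla4 (edgeR adjusted p = 0.0202). Icos rose in cohort 2 (log2 fold change 0.44 ± 0.12, medians of 12.8 CPM on day 40 and 8.99 on day 5), in cohort 4 (0.46 ± 0.12, medians of 12.5 CPM on day 40 and 8.57 on day 12) and in cohort 5 (0.35 ± 0.12, medians of 10.4 CPM on day 44 and 7.85 on day 16). The cohort 5 value had an edgeR adjusted p of 0.0369 here, and of 0.0678 in the fit of cohort 5 with the SPF mice given above. In cohort 9, whose first sampling was on day 30, it was −0.14 ± 0.12, at medians of 9.80 CPM on day 44 and 10.7 CPM on day 30. Ctla4 passed in no single cohort, and its values ran between −0.42 ± 0.17 in cohort 9 and 0.26 ± 0.16 in cohort 6. The share of all genes called was 39.1%, 47.2%, 25.3%, 31%, 14.6%, 21.6%, 2.94%, 1.45% and 7.14% in cohorts 1 to 9. Cohort 2, with the largest of these shares, was also the cohort with most members called, Icos, Ikzf2 (0.34 ± 0.13), Il2ra (−0.55 ± 0.24) and Ikzf4 (−1.58 ± 0.46). For Foxp3 the difference among cohorts was not called (edgeR adjusted p = 0.462), and the largest single value was 0.90 ± 0.36 in cohort 8 (edgeR adjusted p = 0.169), at medians of 0.704 CPM on day 40 and 0.353 CPM on day 26.

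**Figure D4:**
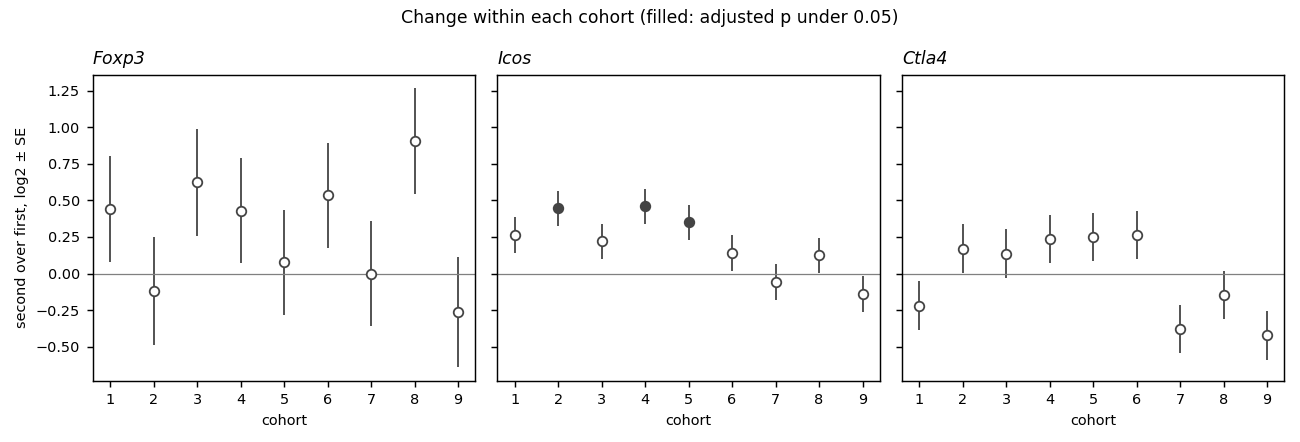
Log2 fold change of the second over the first sampling ± SE in each of the 9 conventional cohorts (x axis, 10 libraries per sampling) for Foxp3, Icos and Ctla4, with filled points where the edgeR adjusted p was under 0.05. Icos is filled in cohorts 2, 4 and 5 and lies at −0.14 in cohort 9, and Ctla4 lies between −0.42 and 0.26.

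T cell transcripts as a whole became a smaller share of the blood RNA at the second sampling. Of the 11 pan-T cell genes 10 fell, their sum having a median of 141.8 CPM at the second sampling against 169.2 CPM at the first, while Cd4 had a value of −0.08 (edgeR adjusted p = 0.0787). All 8 neutrophil markers rose, with a median sum of 4510 CPM at the second sampling and 1396 CPM at the first. Relative to Cd3 transcripts, on which scale 62.8% of all genes were called, 53.2% being higher, and the median of all genes shifted by 0.24, 6 of 8 members were higher. Foxp3 had 17.5 counts per 1000 Cd3 counts at the median of the second sampling and 11.9 at the first, higher in all 9 cohort medians, with a log2 fold change of 0.53 ± 0.13 (edgeR adjusted p = 0.000141), which is 0.30 above the shift. Icos had medians of 345 and 242 at the second and first sampling, with 0.47 ± 0.05 (edgeR adjusted p = 4.08e-16), 0.23 above the shift. Tnfrsf4 had 0.40 ± 0.12, Tnfrsf18 0.36 ± 0.08, Ikzf2 0.29 ± 0.05 and Ctla4 0.24 ± 0.06, which are 0.17, 0.12, 0.06 and 0.01 above the shift. Il2ra had 0.01 ± 0.08 and Ikzf4 −0.02 ± 0.15, which lie 0.22 and 0.26 below it and did not pass. Within cohorts 1 to 4 the values were 0.66 for Foxp3, 0.71 for Icos and 0.44 for Ctla4. Within cohorts 6 to 9 only Icos (0.19, edgeR adjusted p = 0.0268) and Tnfrsf18 (0.28, edgeR adjusted p = 0.0398) were called on this scale, with Foxp3 at 0.47 (edgeR adjusted p = 0.0818) and Ctla4 at −0.01. Of the 18192 genes tested, about 11480 passed on this scale within cohorts 1 to 4 and 5576 within cohorts 6 to 9.

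Within the second sampling the score spanned 0 to 4 over 90 libraries, and 2 members had a slope on it, Tnfrsf18 upward and Ikzf2 downward. Of all genes 37.6% had a slope on the score, 17.8% upward and 19.8% downward. Tnfrsf18 had 2.20, 3.95 and 8.81 CPM as lowest, median and highest values at scores 3 or 4 (n = 40), against 2.31, 3.02 and 4.38 CPM at scores under 1 (n = 12), with medians of 3.19 CPM at score 1 and 3.38 CPM at score 2. Its slope was 0.15 ± 0.04 log2 units per score unit (edgeR adjusted p = 0.00196). The slope was 0.14 within cohorts 1 to 4 (edgeR adjusted p = 0.121) and 0.09 within cohorts 6 to 9 (edgeR adjusted p = 0.431), and 0.07 with globin and mitochondrial ribosomal RNA shares as covariates (edgeR adjusted p = 0.235). Ikzf2 had a slope of −0.10 ± 0.04 (edgeR adjusted p = 0.0371), but not in order of the score. Its medians were 20.4 CPM at scores under 1, 27.5 at score 1, 22.9 at score 2 and 19.6 at scores 3 or 4. The Ikzf2 slope was −0.16 within cohorts 1 to 4 (edgeR adjusted p = 0.0133) and −0.02 within cohorts 6 to 9 (edgeR adjusted p = 0.916). Within cohorts 6 to 9, 0 of all genes had a slope that passed. The Ikzf2 slope was −0.08 in libraries with 500 or more Cd3 counts (edgeR adjusted p = 0.0562) and 0.02 with the same covariates (edgeR adjusted p = 0.696). Foxp3 had medians of 0.453 CPM at scores under 1, 0.658 at score 1, 0.636 at score 2 and 0.498 at scores 3 or 4, and a slope of −0.03 ± 0.09. The slopes of Icos (0.04 ± 0.03), Ctla4 (−0.03 ± 0.04), Il2ra (−0.03 ± 0.06), Ikzf4 (−0.12 ± 0.13) and Tnfrsf4 (−0.03 ± 0.10) did not pass.

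Other cell lists moved with the score too. Of the pan-T cell genes 9 of 11 fell with the score, with a median sum of 132.6 CPM at scores 3 or 4 and 154.7 CPM at scores under 1. The 8 neutrophil markers rose, with median sums of 6476 and 3650 CPM in the same classes, as did all 6 erythroid markers. Of the 4 eosinophil markers tested, Alox15 (−0.26 ± 0.07) and Ccr3 (−0.23 ± 0.08) fell. The part of these lists in the member slopes was not tested. Relative to Cd3 transcripts, where 41.3% of genes were called and the median of all genes had a slope of 0.12, 3 members rose. Tnfrsf18 had medians of 137.8 counts per 1000 Cd3 counts at scores 3 or 4 and 79.4 at scores under 1, with a slope of 0.32 ± 0.06 (edgeR adjusted p = 7.98e-06), 0.20 above that of all genes. Icos had 357 and 265 in the same classes, with a slope of 0.19 ± 0.04 (edgeR adjusted p = 2.45e-05), 0.07 above. Ctla4 had 138.7 and 107.3, with a slope of 0.11 ± 0.04 (edgeR adjusted p = 0.0373), which is 0.01 below the slope of all genes. Within cohorts 1 to 4 the slopes were 0.36 for Tnfrsf18, 0.20 for Icos and 0.11 for Ctla4, the last not called (edgeR adjusted p = 0.206). The Ctla4 call was also lost with Trac, Trbc1 and Trbc2 in place of the Cd3 chains (0.07, edgeR adjusted p = 0.194). Within cohorts 6 to 9, 0 members passed on this scale in edgeR, and 0 of all genes did. The slopes there were 0.23 for Tnfrsf18 (edgeR adjusted p = 0.213) and 0.17 for Icos (edgeR adjusted p = 0.179).

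**Figure D5:**
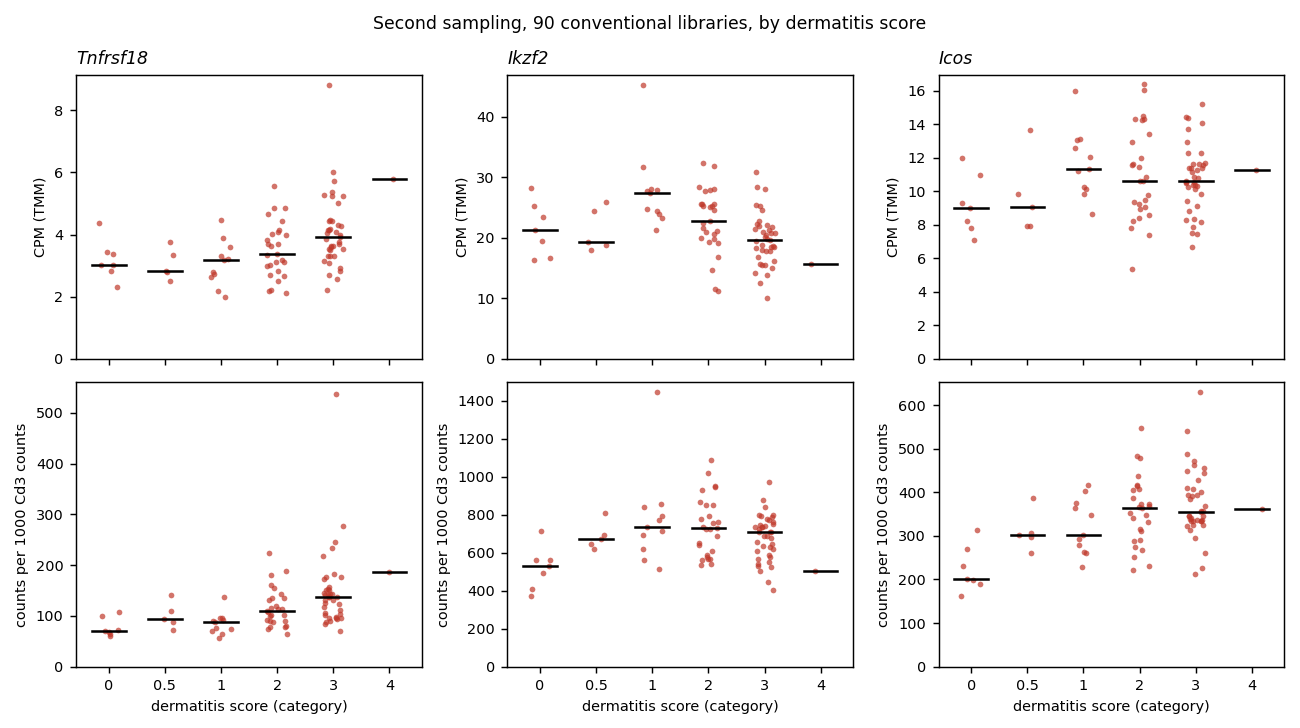
Tnfrsf18, Ikzf2 and Icos in the 90 conventional libraries of the second sampling by dermatitis score (x axis), as CPM in the top row and as counts per 1000 Cd3 counts in the bottom row, each point a library and each bar a median. Median Tnfrsf18 is 3.95 CPM at scores 3 or 4 and 3.02 CPM at scores under 1, whereas median Ikzf2 peaks at score 1 with 27.5 CPM.

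At the first sampling, over days 12 to 30 (n = 60), 9.93% of all genes had a slope on the score and 0 members did in edgeR, nor was any member under an unadjusted p of 0.05. With the covariates above Tnfrsf18 passed, at 0.21 (edgeR adjusted p = 0.037). Per Cd3 transcript, with 14.2% of genes called, the Icos slope of 0.18 ± 0.06 passed (edgeR adjusted p = 0.0265), which is 0.10 above that of all genes. It did not pass with Trac, Trbc1 and Trbc2 as the reference (0.15, edgeR adjusted p = 0.13) or within cohorts 6 to 9 (0.17, edgeR adjusted p = 0.0659). Of cohorts 1 to 4, cohort 4 alone falls in these days, so no value was fitted within them. The difference between the slopes of the second and first sampling was called for 0 genes in edgeR, with 2327 under an unadjusted p of 0.05, and for Tnfrsf18 it was 0.06 ± 0.09.

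Genes that act around the members were read from 4 lists. In the interleukin 2 receptor list, 6 of 8 tested genes changed between the samplings, 4 upward and 2 downward. They included Cish, a feedback inhibitor induced by STAT5 (log2 fold change 0.41 ± 0.12), the receptor-bound kinase gene Jak1 (0.37 ± 0.04) and Stat5b (0.36 ± 0.04), each higher at the second sampling. The list's median was 0.06, against −0.02 over all genes. Of the members' ligands and shared receptors 2 of 6 tested genes changed, the cytokine gene Il15 upward (0.88 ± 0.08) and the costimulatory receptor Cd28 downward (−0.13). Of 15 factors that act with Foxp3, 11 changed, 5 upward and 6 downward, with Foxo3 at 0.91 ± 0.09, Bach2, a repressor that keeps T cells in a resting state, at −0.51 ± 0.08 and Irf4, a factor of effector T cells, at −0.46 ± 0.05. These genes are expressed by many blood cells, and the share of the list changed is to be read against the 62.3% of all genes.

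Of 22 further genes described in mouse regulatory T cells 19 were tested, and 14 changed between the samplings, 8 upward and 6 downward, beside 62.3% of all genes. Largest among them were Ebi3, a subunit of interleukin 35 (0.85 ± 0.14), Entpd1, the ectoenzyme CD39 (0.84 ± 0.08) and the orphan receptor gene Gpr83 (−0.84 ± 0.09). On day 44, 6 of the 19 differed between conventional and SPF mice, 4 upward and 2 downward, beside 20.1% of all genes, led by Ccr4, a skin-homing chemokine receptor (1.47 ± 0.36), Ebi3 (1.25 ± 0.45) and Entpd1 (1.09 ± 0.22). On the score, 1 of the 19 passed, Entpd1 at 0.13 ± 0.05 per unit, while 37.6% of all genes did. On day 16, 0 genes of these 4 lists differed between the housings in edgeR, beside 0.522% of all genes, a share too small for this count to set the lists apart.

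The group means over the 20 groups give each gene a profile, and the genes whose profile was most like a member's were found by Pearson correlation of mean log2 CPM (n = 20 groups, which share libraries' depth and composition). The closest to Icos was Ccr4 at 0.948, then the muscle gene Neb at 0.922. The closest to Ikzf2 were Gm29112 at 0.957, which overlaps Ikzf2 on its own strand, and the eosinophil marker Alox15 at 0.927. For Foxp3 no gene reached 0.80, the first 5 being Glis3 at 0.764, 9930004E17Rik at 0.754, Mbd6 at 0.747, Stim1 at 0.741 and Gm42372 at 0.733. The closest to Tnfrsf18 were H4c18 at 0.917 and Aamp at 0.900, to Il2ra Gm3373 at 0.877 and Bend3 at 0.871, and to Ctla4 Elovl6 at 0.828 and Tppp at 0.812. Ikzf4 was closest to Col17a1 at 0.843 and Pmepa1 at 0.835, and Tnfrsf4 to Ethe1 at 0.765 and Mrpl14 at 0.753. Among the members themselves, Icos went with Ctla4 (0.771), Ikzf2 (0.753) and Foxp3 (0.641), while Ikzf2 and Tnfrsf18 ran opposite (−0.657) and Foxp3 and Il2ra were unrelated in profile (0.0167). The neighbouring genes Tnfrsf4 and Tnfrsf18 had a correlation of 0.462.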

How the data were processed

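Whole-blood RNA of the tail vein was made into stranded, globin- and rRNA-depleted total RNA libraries, per the labels' protocols. The authors deposited expected counts and TPM per gene, made with DRAGEN on GRCm39 per the submitters' processing notes; no source used here gives the version, annotation release or strand setting. Expected counts (2.86% of the deposited values were not whole) were rounded. Groups came from the labels. Genes with 10 or more counts by edgeR's filter over the 20 groups were kept (18192), scaled by TMM and tested with edgeR 4.0.16's quasi-likelihood test in R 4.3.3, two-sided, with Benjamini-Hochberg adjustment over all tested genes at 0.05. SE was taken as the absolute log2 value over the root of F. For values per Cd3 transcript the library size was set to the summed counts of Cd3d, Cd3e and Cd3g, with no TMM. The authors' TPM served to compare levels between genes. DESeq2 1.42.0, RLE size factors, no filter, covariates, subsets of cohorts, leaving out each SPF replicate and replicate blocks were alternatives. No library pair within a group had identical values. The test was also run on simulated counts with the same spread for every gene and with changes larger than the members showed. That run cannot vouch for the member calls. The members and lists were chosen with earlier results of these data known. The 8 members were named in every comparison; from other lists, at most 3 called genes of largest change were named per comparison, beside Cd4 and genes most like a member.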

Additional observations from a re-analysis of the deposited data

Results flagged for a closer look

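In 160 sets of a member and a group, 16 held a library far from the others of its group by Dixon's gap criterion. For normally distributed values chance flags about 1 in 20 groups. The rate for CPM values such as these, many from low counts, was not computed. Some libraries stood out for several members. Cohort 5 replicate 7 on day 44 had 45.25 CPM of Ikzf2, next to 28.4 CPM in the next library, and 2.319 CPM of Il2ra. Cohort 5 replicate 3 on day 16 had 6.12 CPM of Ctla4 and 13.63 CPM of Icos. SPF replicate 3 on day 44 was low in Icos, at 4.492 CPM, and in Ikzf4, at 0.02773 CPM. The highest Tnfrsf18 value of all, 8.807 CPM, came from cohort 2 replicate 8 on day 40, next to 4.84 CPM in the next library of its group, and that library had 470 Cd3 counts.

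The Foxp3 values of 3 libraries stood high in their groups, 1.199 CPM in cohort 2 replicate 8 on day 5, 1.676 CPM in cohort 6 replicate 2 on day 40 and 1.027 CPM in cohort 9 replicate 8 on day 30. Ctla4 was low in cohort 4 replicate 7 on day 40, at 2.657 CPM. Ikzf4 was high in cohort 3 replicate 4 on day 44, at 0.6168 CPM, and in cohort 4 replicate 4 on day 40, at 0.7809 CPM. Tnfrsf4 was high in cohort 7 replicate 8 on day 23, at 1.157 CPM, and in cohort 8 replicate 3 on day 26, at 0.7864 CPM, and low in SPF replicate 1 on day 44, at 0.1048 CPM.

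The change between the second and the first sampling differed among the 9 cohorts for Ctla4 (edgeR adjusted p = 0.02024) and Icos (edgeR adjusted p = 0.01797).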

How the results depend on the processing

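Of 952 member values under alternative settings 873 kept their side of the threshold, 64 of them with a change of sign in a value called in neither fit, 57 lost the call, 16 gained it and 6 that were called turned round. The last were Tnfrsf18 (0.0769) in the day trend with globin and mitochondrial rRNA covariates, Ikzf2 (−0.0768) in that trend within cohorts 6 to 9, Ctla4 per Cd3 transcript in the trend within cohorts 1 to 4 (−0.0825) and in libraries of score 0 (−0.0271) and between samplings within cohorts 6 to 9 (−0.0122), and Ikzf2 (0.0217) in the second-sampling score slope with covariates. The cause was not tested.

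The number of members called changed as follows. On day 16, 1 member became 2 with DESeq2 (463 genes, against 95) and 0 to 1 without each SPF replicate (28 genes at the lowest); per Cd3 transcript 1 became 0 with T cell receptor constant genes as reference, 0 without SPF replicate 3 of day 16, and 0 to 1 without each SPF replicate. All-gene counts on day 16 were 55 with no filter and 472 with covariates. On day 44, 1 member became 3 with DESeq2, 2 with RLE, 2 with covariates, 2 with cohorts 1 and 3, 2 with cohorts 5, 7 and 9, 3 with libraries of 500 or more Cd3 counts, and 0 to 1 without each SPF replicate (1996 genes at the lowest, against 3648); per Cd3 transcript 3 became 5 with cohorts 1 and 3, and 3 to 4 without each SPF replicate (2718 genes at the lowest, against 5632). Among first-sampling days 3 became 0 with covariates, 2 within cohorts 1 to 4 (5080 genes, against 10522) and 0 within cohorts 6 to 9 (2538 genes). In the day trend 5 became 1 with covariates, 2 within cohorts 1 to 4 (4210 genes, against 9570), 0 within cohorts 6 to 9 (498 genes) and 2 in libraries of score 0 (6408 genes). In that trend per Cd3 transcript 3 became 2 in libraries of score 0 (5363 genes), 1 within cohorts 1 to 4 and 0 within cohorts 6 to 9 (824 genes, against 9830). Between samplings 3 became 4 with DESeq2, 2 with RLE, 2 with no filter and 0 within cohorts 6 to 9 (3506 genes, against 11325), and per Cd3 transcript 6 became 2 within cohorts 6 to 9 (5576 genes, against 11422). For the second-sampling score slope 2 became 0 with covariates (3201 genes, against 6836), 1 within cohorts 1 to 4, 0 within cohorts 6 to 9 (0 genes) and 1 with libraries of 500 or more Cd3 counts. For that slope per Cd3 transcript 3 became 2 with T cell receptor constant genes as reference, within cohorts 1 to 4 and with libraries of 500 or more Cd3 counts, and 0 within cohorts 6 to 9 (0 genes). For the first-sampling slope 0 became 1 with covariates, and per Cd3 transcript 1 became 0 with T cell receptor constant genes as reference (1311 genes, against 2581) and 0 within cohorts 6 to 9. Subsets of cohorts hold fewer samples. The settings that leave out SPF replicate 3 of day 16 alone or libraries under 500 Cd3 counts, and the within-cohort fits of the first-sampling days and first-sampling slope, were chosen after seeing the data.

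The labels do not say whether same-numbered libraries of a cohort are the same mouse, and they were not paired. Over 95 same-numbered pairs, correlations of deviations ran between −0.173 and 0.354, 19 were over 0.1, and 14 libraries correlated best with their own number. Such weak correlations between days cannot settle whether the mice were the same. For the housing comparison of day 16, a replicate block was fitted to replicates 1 to 5 alone and gave 0 members (5 genes). That block grouped same-numbered libraries of both housings, which are different cohorts, and left out the other conventional libraries. It therefore cannot show what pairing the same mice would do. Blocks by replicate number within a cohort gave 1 member for day 44 over day 16 in conventional mice, Icos at 0.34 (edgeR adjusted p = 0.0409). They changed no other count of members. Foxp3, Ikzf4 and Tnfrsf4, at medians of 10 to 18 counts, rest on few reads, and the 5 SPF libraries per day limit every housing comparison.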
